A study of Homo sapiens with 4 samples.

Results

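Cancer-testis antigen genes were examined on Illumina bead arrays of U87, a long-established line of human glioblastoma cells. They were chosen by symbol in the platform annotation: names that begin with MAGE and a letter from A to H, with GAGE, PAGE, XAGE or SSX and a digit, or with BAGE or CTAG. Among probes annotated with a single symbol, the only ones searched, the rule took 73 genes with 131 probes, of 20045 genes with a named probe. The cells had received, at 25 nM with a lipid reagent, either a synthetic mimic of the PIWI-interacting RNA piR-598 or a negative control oligo (NC oligo) sold as a control for microRNA inhibitors. RNA was collected after 24 h from 2 samples per group, biological duplicates per the series' design text, with 1 array each. No untransfected cells were analysed here, so both groups carry a transfected oligo, and all 4 arrays come from 1 cell line.

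Cancer-testis antigens are proteins made in the germ cells of the testis, some also in placenta, and kept silent in most other adult tissues, where methylation of CpG dinucleotides in their promoters holds them off. Many tumours switch them on again, and T cells can then recognise their peptides. Most belong to multicopy families on the X chromosome with near-identical members: the type I MAGE genes (MAGE-A, -B and -C), GAGE, PAGE, XAGE, SSX and CTAG1, which encodes NY-ESO-1. The rule also took genes outside these families. Type II MAGE genes (MAGE-D, -E, -F and -H) are active in many tissues, SSX2IP encodes a centrosomal and junction protein that binds SSX2, and CTAGE genes are a family of their own that shares its first letters with CTAG. Of these CTAGE1, itself known as a testis-restricted antigen, was counted with the CTAGE family and was detected on no array. Of the 73 genes 71 matched RefSeq by gene identifier, and 61 of these lie on the X chromosome.

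A detection p compares each probe with the negative control beads of its array, and a gene was called detected where at least 1 of its probes had a value under 0.05 on every one of the 4 arrays. The germline genes that were on in U87 by this rule were MAGEA1, MAGEC1, MAGEC2, SSX1, SSX3, SSX4B and 8 GAGE genes. Probes of near-identical copies may read more than 1 gene, so the number of separate SSX and GAGE genes that are on is uncertain. In all, 22 of the 73 genes (30.1%) were detected, against 51.6% of all genes with a named probe. Of the 58 genes of the germline-restricted families 14 were detected, or 24.1%, and 29 were detected on no array. At a limit of 0.01 in place of 0.05, 12 of the 58 stayed, or 20.7%, against 48.5% of all genes, and the genes that dropped out were SSX3 and SSX4B. Members are not replicates, so these shares are descriptions, with no test.

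**Figure D1:**
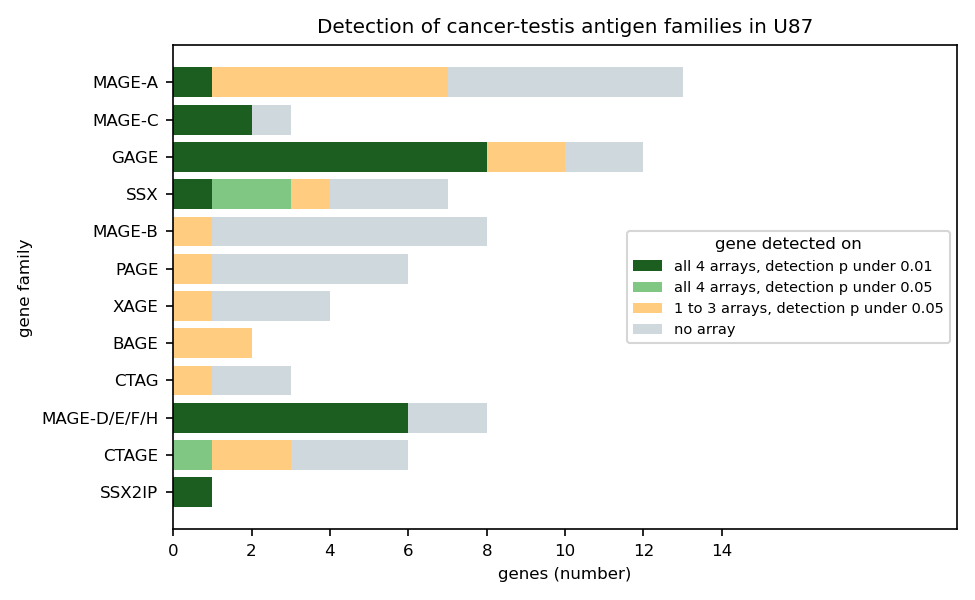
Number of genes in each family (bars, in genes) by the arrays on which at least 1 probe was detected. In the GAGE family 8 of 12 genes were detected on all 4 arrays with a detection p under 0.01, while 0 of 8 MAGE-B and 0 of 6 PAGE genes were detected on all 4.

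A few promoter sequences are shown before the values, to set detected beside undetected members. They are RefSeq windows of GRCh38.p14 from 250 bases before to 30 bases after the start of the gene, on the strand of the gene. The first set shows GAGE12C, which was detected, beside GAGE10 of the same family and PAGE1 of the neighbouring family, which were detected on no array. The windows are chrX:49531927-49532206 (plus strand), chrX:49303396-49303675 (plus strand) and chrX:49695955-49696234 (minus strand). Capitals mark the E-box CACGTG, a word that MYC, MAX and MGA can bind.
GAGE12C: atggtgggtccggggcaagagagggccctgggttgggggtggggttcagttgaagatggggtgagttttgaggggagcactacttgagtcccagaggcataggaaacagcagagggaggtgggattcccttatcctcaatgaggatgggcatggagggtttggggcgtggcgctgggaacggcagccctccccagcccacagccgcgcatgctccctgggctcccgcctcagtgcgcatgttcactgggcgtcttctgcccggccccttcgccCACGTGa
GAGE10: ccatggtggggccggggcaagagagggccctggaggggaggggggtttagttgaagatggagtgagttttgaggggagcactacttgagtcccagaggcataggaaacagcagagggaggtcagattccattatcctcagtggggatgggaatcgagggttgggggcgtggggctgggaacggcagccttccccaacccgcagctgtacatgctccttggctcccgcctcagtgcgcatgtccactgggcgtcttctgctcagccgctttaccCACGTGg
PAGE1: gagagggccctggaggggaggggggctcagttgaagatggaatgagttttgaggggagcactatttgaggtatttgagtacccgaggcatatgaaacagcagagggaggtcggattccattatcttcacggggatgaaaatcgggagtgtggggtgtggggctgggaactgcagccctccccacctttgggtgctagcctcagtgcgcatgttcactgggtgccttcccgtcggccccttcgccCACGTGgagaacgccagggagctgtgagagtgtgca

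The E-box lay 24 bases after the start in GAGE12C and GAGE10. The full table of windows runs to 50 bases after the start, so to 300 bases, and a window was found for 59 of the 73 genes. CACGTG, which reads the same on both strands, stood in 10 of 10 GAGE genes with a window and in 4 of 6 PAGE genes, against 7.26% of all 35116 windows in the table. It was thus present in genes whose probes were detected and in genes whose probes were not, and its role was not tested. Among the 9 GAGE12 and GAGE2A genes, 7 had the same 300 bases letter for letter, GAGE12G shared 297 of 297 bases with them at a shift of 3, and GAGE12B matched GAGE12G in 280 of 281 bases at a shift of 19. GAGE12D, whose probe was detected on no array, has the same window as GAGE12C, whose probe was detected on all 4.

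The second set shows MAGEC2 and SSX1, which were detected, and MAGEA3, which was not detected on all 4 arrays. Their windows are chrX:142205261-142205540 (minus strand), chrX:48255142-48255421 (plus strand) and chrX:152698544-152698823 (plus strand). Capitals mark the CG dinucleotides, the sites at which DNA methylation can occur.
MAGEC2: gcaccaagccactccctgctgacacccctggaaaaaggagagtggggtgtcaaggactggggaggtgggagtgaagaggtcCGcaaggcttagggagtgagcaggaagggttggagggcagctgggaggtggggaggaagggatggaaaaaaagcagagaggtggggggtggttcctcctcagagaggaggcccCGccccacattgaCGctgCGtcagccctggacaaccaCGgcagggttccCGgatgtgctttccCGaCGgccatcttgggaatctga
SSX1: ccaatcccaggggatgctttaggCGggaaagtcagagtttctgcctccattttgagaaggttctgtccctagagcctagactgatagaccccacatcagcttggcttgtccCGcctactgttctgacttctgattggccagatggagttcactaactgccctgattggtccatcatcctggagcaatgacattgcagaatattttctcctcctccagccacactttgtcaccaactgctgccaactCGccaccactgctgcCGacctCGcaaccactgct
MAGEA3: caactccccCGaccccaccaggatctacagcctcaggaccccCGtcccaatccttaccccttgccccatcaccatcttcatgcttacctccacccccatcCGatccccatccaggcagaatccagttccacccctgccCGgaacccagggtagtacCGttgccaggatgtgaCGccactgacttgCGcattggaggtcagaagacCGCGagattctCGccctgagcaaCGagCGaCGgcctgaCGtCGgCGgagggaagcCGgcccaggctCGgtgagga

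Over the 300 bases, CG dinucleotides were counted in the richest window of each gene. MAGEA1, GAGE4 and SSX3 were detected but have no window, which leaves 11 detected germline genes. The median was 13 in these 11 (5 to 14) and 12 in the 36 others (2 to 21). Over all windows, each counted singly, it was 14. Most of the 11 are GAGE genes with near-identical windows of 12 or 13, while MAGEC1 had 14, MAGEC2 10, SSX1 5 and SSX4B 10. The number of CG dinucleotides therefore overlapped between detected and undetected members. The E2F word GCGGGAA, searched on both strands, stood in 5 of 6 SSX genes with a window and in 6.55% of all windows. SSX1 and SSX4B hold it and were detected, while SSX2 and SSX5 hold it and were detected on no array. CCGGAA, a core word of ETS factors, was searched on both strands. It stood in 0 of the 11 detected and 4 of the 36 other germline genes, against 17.2% of all windows. The 11 are mostly GAGE copies and do not include MAGEA1, whose promoter was not searched. All the words above are matches of letters only, and methylation was not measured.

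The arrays carried 47318 probes each, and their mean signal was 300.0 to 305.8 in the NC oligo group and 273.0 to 284.8 in the mimic group. Deposited signals are unscaled, and those of the mimic arrays were lower on average though not at every probe. Differences between groups were therefore tested on normalized values only. The lowest signal that counted as detected was 96.0 to 102.9, depending on the array, and 35.2% of all probes were detected on all 4 arrays. Of the 131 member probes 31 were, and 77 were detected on no array, against 47.6% of all probes. At the limit of 0.01, 24 member probes and 32.1% of all probes were detected on every array. Signals of different probes depend on the probe as well as on the transcript, so levels are not ranked between genes. In a bulk sample, a few cells with much of a transcript and many cells with little of it cannot be told apart.

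Among the type I MAGE genes, 3 of 24 were detected on all 4 arrays, each by both of its probes. MAGEA1, the antigen with which the MAGE family was discovered in melanoma, had signals of 315.4 and 295.2 on NC oligo arrays 1 and 2 and of 256.0 and 286.6 on mimic arrays 1 and 2 at its brighter probe. At its other probe the signals were 165.6, 145.6, 134.8 and 161.1 in the same order. The detection p was under 0.01 at both probes on every array.

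MAGEC2, known to bind and stimulate the ubiquitin ligase TRIM28, had signals of 344.8 and 342.3 with the NC oligo and 304.9 and 330.4 with the mimic at its brighter probe. The other probe gave 150.2 and 128.3 with the NC oligo and 119.7 to 127.6 with the mimic. MAGEC1, a larger relative whose gene lies next to MAGEC2 in the RefSeq order, had 189.1, 194.8, 189.4 and 181.9 at 1 probe and 169.1, 165.4, 156.1 and 153.3 at the other, NC oligo arrays first. All 4 probes of these MAGE-C genes stood above the detection limit on every array. MAGEC3, the neighbour on the other side of MAGEC1, was detected on no array by any of 4 probes, with signals of 82.1 to 94.2.

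The other MAGE-A genes were near or below the limit. MAGEA6, a close copy of MAGEA3, was detected on 3 of 4 arrays at 1 probe, with 113.7 and 113.5 with the NC oligo, 94.4 on mimic array 1 and 107.4 on mimic array 2. Its 2 further probes were detected on 2 arrays and on 1 array. MAGEA3, an antigen used in cancer vaccine trials, was detected on 1 array by 1 of 2 probes, at 101.3 on mimic array 1, and its remaining signals were 85.0 to 99.0. MAGEA9B was detected on 3 arrays at 1 probe (116.1 and 102.9 with the NC oligo, 97.2 and 93.9 with the mimic, the last of them not detected) and MAGEA12 on 2 arrays. MAGEA4, which is targeted by engineered T cells, was detected on no array by either probe, and neither were MAGEA2, MAGEA2B, MAGEA9, MAGEA10 and MAGEA11. MAGEA3, MAGEA6, MAGEA2, MAGEA12 and the paired copies MAGEA9 and MAGEA9B are so alike that a probe may read more than 1 of them. MAGEA5P and MAGEA8 were each detected on 1 array.

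In the MAGE-B family 7 of 8 genes were detected on no array, and MAGEB6 on 1 array at 1 of 2 probes. All 12 MAGE-B probes had signals between 83.1 and 99.8.

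**Figure D2:**
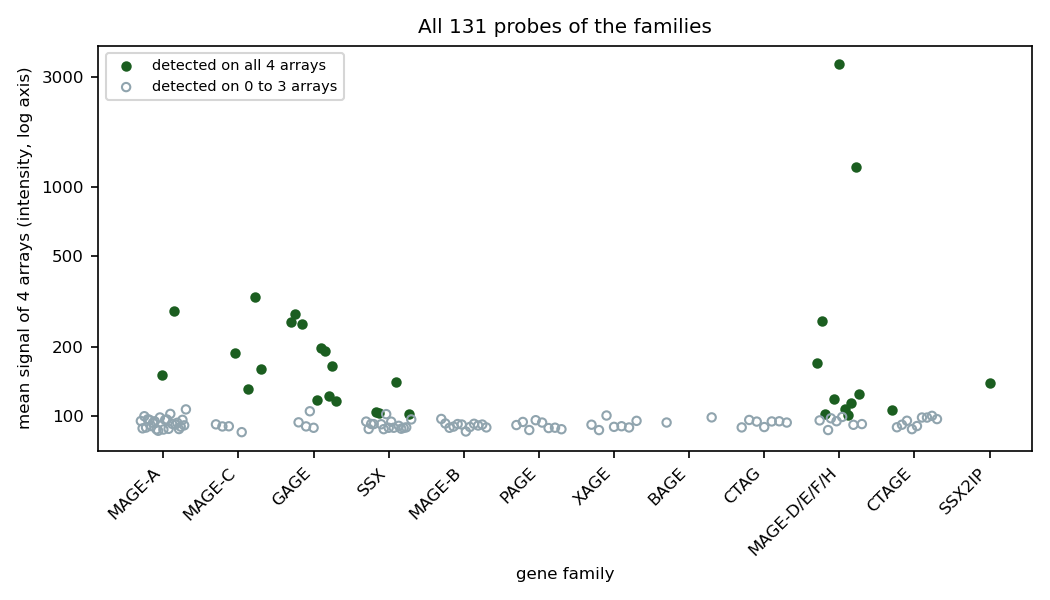
Mean deposited signal of the 4 arrays (intensity, log axis) for each of the 131 probes, by family, with filled points for probes detected on all 4 arrays. The filled germline probes belong to MAGE-A, MAGE-C, GAGE and SSX, and all MAGE-B, PAGE, XAGE, BAGE and CTAG points are open and lie near 100.

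GAGE proteins are small, highly similar and largely unstructured proteins of germ cells. Of 12 GAGE genes 8 were detected on all 4 arrays, with 9 of 13 probes, all of them at a detection p under 0.01. GAGE12G had signals of 281.6, 258.4, 236.9 and 250.0, with the NC oligo arrays first. GAGE4, an array symbol without a match in RefSeq, had 300.6, 309.7, 262.9 and 241.1 at 1 probe and 251.3, 275.5, 240.5 and 242.9 at the other. These values stood clear of the lowest detected signal on every array.

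GAGE12J had signals of 190.8, 206.9, 190.3 and 207.3, GAGE12C of 207.2, 191.9, 191.3 and 183.7, and GAGE12H of 183.0, 158.7, 156.8 and 165.8, in the same order. GAGE12B (108.9 to 137.3), GAGE12F (111.4 to 125.8) and GAGE2A (108.9 to 121.8) were closer to the limit. GAGE12E was detected on 3 arrays, with 112.3 and 111.4 with the NC oligo and 94.9 and 102.5 with the mimic. GAGE7 was detected on 1 array, and GAGE10 and GAGE12D on none. GAGE genes are known as near-identical copies, so how many of the 8 are transcribed is uncertain, and 1 active copy could be read by several probes.

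SSX proteins are nuclear repressors of germ cells, known from synovial sarcoma, in which SSX1 or SSX2 is fused to SS18. SSX1 was detected on all 4 arrays by 2 of 3 probes, with 145.3, 147.3, 126.7 and 145.4 at the brighter one. The other gave 102.8, 106.4, 102.4 and 106.4, close to the limit. SSX3 had 102.8, 104.3, 101.3 and 105.1, and SSX4B had 104.0, 106.9, 98.7 and 101.0 at 1 of 2 probes. Like the dimmer SSX1 probe, both had a detection p between 0.01 and 0.05 on at least 1 array, and 3.08% of all probes passed on every array at the looser limit alone. SSX4 was detected on 3 arrays at 1 of 5 probes. Which SSX copy each probe reads could not be checked, so SSX3 and SSX4B may not be separate active genes. SSX2, the other synovial sarcoma partner, was detected on no array by any of 5 probes, nor were SSX5 and SSX7. In RefSeq order SSX5, SSX1, SSX3, SSX4 and SSX4B are neighbours, and SSX2 lies next to SSX7 in a separate stretch of the chromosome.

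**Figure D3:**
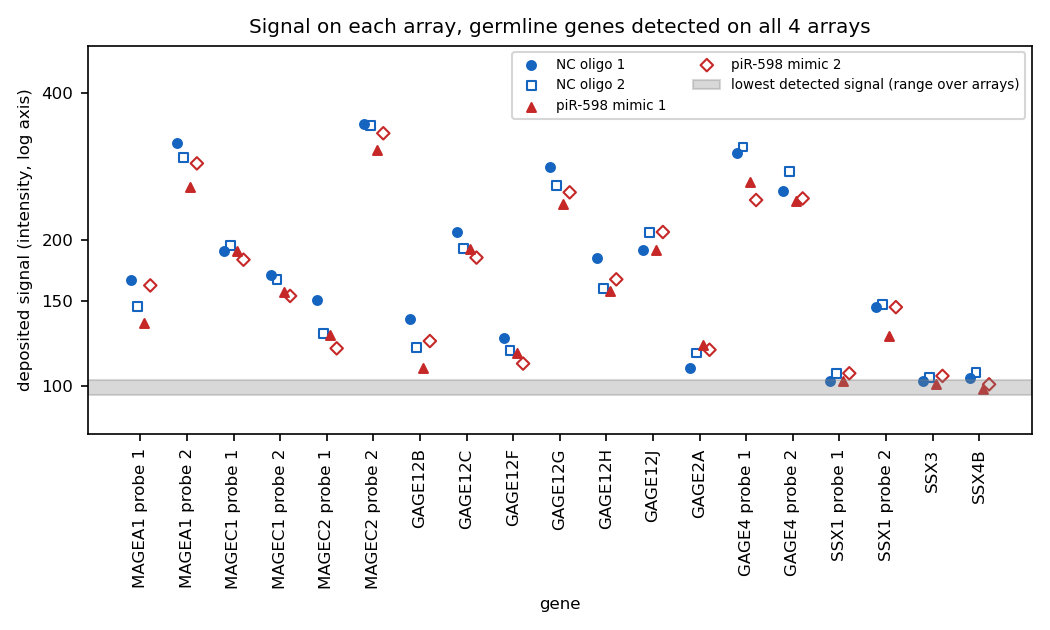
Deposited signal (intensity, log axis) on each of the 4 arrays for the 19 probes of germline genes detected on all 4, with the lowest detected signal of the arrays as a grey band. All points of MAGEA1, MAGEC1, MAGEC2 and the GAGE genes lie above the band, while SSX3, SSX4B and 1 SSX1 probe lie in it or just above it, at 98.7 to 106.9.

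The remaining germline families were not detected on all 4 arrays. CTAG1B, the gene of the vaccine target NY-ESO-1, had signals of 87.1 to 102.0 over 2 probes and was detected on no array. CTAG2 was likewise detected on no array, and CTAG1A, an identical copy of CTAG1B in its protein, on 1 array at 1 of 3 probes. PAGE1, PAGE2, PAGE2B, PAGE4, which is best known from prostate, and PAGE5 were detected on no array, and PAGE3 on 1 array. XAGE2, XAGE3 and XAGE5 were detected on no array. BAGE2 was detected on 1 array. GAGE1 and BAGE have no probe of that symbol among those used here.

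XAGE1B, a gene active in some lung cancers, was detected on both NC oligo arrays (109.0 and 104.8) and on neither mimic array (92.6 and 97.1). BAGE5 did the reverse, with 102.1 and 96.7 below the limit in the NC oligo group and 97.1 and 100.1 detected with the mimic. The first pattern was met by 0.706% of all probes and the second by 0.721%. Both probes entered the test only through the group in which they were detected, so the direction of each difference largely follows from that pattern. In the main normalization the 95% interval of the log2 fold change was -0.68 to 0.0 for XAGE1B. That of BAGE5 was -0.16 to 0.52 and holds values of both signs. Neither gene passed the test (limma adjusted p = 0.896 and 0.944). The log2 fold change of XAGE1B was -0.34 in that normalization, -0.14 with an offset of 50, -0.10 without background correction and -0.05 on the authors' scaled signals. That of BAGE5 was 0.18, 0.07, 0.06 and 0.11 in the same order.

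Genes outside the germline-restricted families made up the other detected members. Of 8 type II MAGE genes 6 were detected on all 4 arrays: MAGED1, MAGED2, MAGED4B, MAGEE1, MAGEF1 and MAGEH1. MAGED1, an adaptor of neurotrophin receptor signalling also called NRAGE, had 3377, 3608, 3444 and 3273 at 1 probe and 1310, 1192, 1257 and 1136 at another, while 2 further probes were detected on no array. MAGED2 was detected by 3 of 4 probes, with 276.0, 256.9, 279.3 and 226.9 at the brightest. MAGEH1 was detected by 2 of 2, with 194.5, 169.2, 156.7 and 162.2 at the brighter. At that MAGED2 probe the second mimic array was lowest, and at MAGEH1 the first NC oligo array was highest. MAGED4B had 114.0 to 133.3 at 1 of 2 probes, MAGEE1 110.6 to 119.7 at 1 of 2 and MAGEF1 113.2 to 125.6. MAGED4, the twin copy of MAGED4B, and MAGEE2 were detected on no array. SSX2IP was detected, with 143.0, 156.3, 110.8 and 146.3. Among the CTAGE genes 1 of 6 was detected, CTAGE6 at 1 of 3 probes with 101.6 to 111.2. Of the 12 detected members with more than 1 probe, 5 were detected by every probe, namely MAGEA1, MAGEC1, MAGEC2, GAGE4 and MAGEH1.

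The cells were checked against marker lists, beside the 51.6% of all genes with a named probe that were detected on all 4 arrays. Of 8 glioblastoma or mesenchymal markers with a probe 6 were detected on all 4 arrays, among them VIM, CD44 and NES, while the astrocyte genes GFAP and S100B were detected on none. Of 12 germ cell markers 9 were detected on no array, DDX4, SYCP1 and SYCP3 included, and 1, NANOS3, on all 4. None of the 4 epithelial and none of the 3 melanocyte markers with a probe was detected on all 4 arrays. CD14 and AIF1 of 5 lymphoid or myeloid markers and CGB5 of 4 placental ones were, and PTPRC and CD3E were on none. Summed germ cell marker signals were 1215 to 1236 with the NC oligo and 1144 to 1159 with the mimic, lower with the mimic like unscaled signals at large. Each sum takes the brightest probe of every marker, undetected ones included, so it is largely background.

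Of other cancer-testis antigens, listed apart from the families, 21 of 84 genes were detected, or 25.0%. Beside this and the lists below stands the 51.6% of all genes with a named probe. The detected ones included CT45A5, SPANXA1, SPANXB1, SPANXD and TDRD1, and genes such as PBK, TTK and CEP55 that dividing cells use as well. This list was not limited to germline-restricted genes, so its share and that of the germline-restricted families cover unlike sets. IL13RA2, an interleukin receptor often present in glioblastoma, had signals of 693.1, 701.4, 530.5 and 674.4. PRAME was detected on 1 array at 1 of 3 probes, and CTCFL, a germline relative of CTCF implicated in switching such genes on, was detected on no array. Of 33 regulators of DNA methylation and silencing with a probe 26 (78.8%) were detected on all 4 arrays, against 51.6% of all named genes. The maintenance methyltransferase DNMT1 had 2878, 2679, 2574 and 2397, its partner UHRF1 was detected at 1580 to 1784, and DNMT3B at 2 of 5 probes. E2F6, MGA, L3MBTL2 and PCGF6, subunits of a repressive complex of germline genes, were all detected. Of 21 partners of MAGE and SSX proteins 18 (85.7%) were detected, with TRIM28 at 654.0 to 815.9. All 4 further genes with a MAGE homology domain (NDN, NSMCE3, MAGEL2 and TRO) were detected.

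The comparison of the groups asks which of these genes differ 24 h after transfection of the mimic. None passed the test. A probe was tested where it was detected on at least 2 arrays, which let in 42 of the 131 member probes, from 30 genes; the others were too dim to compare. After Benjamini-Hochberg adjustment over all 20188 tested probes (limma, limit 0.05), 0 of the 42 and 0.0% of all probes were called. The smallest adjusted p of a member was 0.896 in limma. At an unadjusted p under 0.05 there were 3 member probes, or 2 up and 1 down, and 5.45% of all tested probes (2.62% up, 2.83% down). The members' log2 fold changes ran from -0.39 to 0.52 with a median of 0.05, against a median of 0.00 over all tested probes, and 26 were positive and 16 negative, where 49.8% of all tested probes were negative. Scaling the arrays by their medians instead turned the sign of 12 of the 42. The arrays separated by group at 11 of the 42 probes, 8 higher and 3 lower with the mimic, against 34.7% of all tested probes (17.1% higher, 17.6% lower). With 2 arrays per group the median 95% interval of a member reached 0.36 to either side on the log2 scale. No interval of the 42 reached a 2-fold difference in normalized signal, up or down, and 29 stayed inside 1.5-fold. Normalized signals include an offset of 16, so dim probes start close to the floor. With the NC oligo SSX3 averaged 4.64 (log2), while SSX7, detected on no array, averaged 4.18. A full loss at such a probe would stay under 2-fold, so these bounds do not carry over to the transcript.

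The genes with the clearest signal showed small differences. At the brighter MAGEA1 probe, normalized signals averaged 7.73 ± 0.07 in the NC oligo group and 7.71 ± 0.04 in the mimic group (log2, SD, n = 2), with a log2 fold change of -0.02 (95% interval -0.35 to 0.30). At the brighter MAGEC2 probe they were 7.96 ± 0.01 and 8.02 ± 0.01 (SD, n = 2) without overlap, with a log2 fold change of 0.06 (-0.26 to 0.37), which was -0.08 with median scaling of the arrays, and the dimmer probe gave -0.16 (-0.64 to 0.31). MAGEC1 had 0.13 (-0.23 to 0.48) and 0.01 (-0.33 to 0.35) at its 2 probes. For these genes the intervals span 0 and leave room for changes in normalized signal up to about the size of their bounds, in either direction. The brighter SSX1 probe had a log2 fold change of -0.02 (-0.38 to 0.33), and the dimmer one had 0.26 (-0.07 to 0.59) with groups that do not overlap. SSX3 had 0.25 (-0.07 to 0.57). SSX4 had 0.21 (-0.19 to 0.61) and SSX4B -0.02 (-0.34 to 0.31). Each of these missed the limit, with limma adjusted p from 0.910 to 0.997.

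Within the GAGE family the probes lay on both sides of 0. GAGE2A had the smallest p of all members, with normalized log2 signals of 4.89 and 5.23 on the NC oligo arrays and 5.73 and 5.44 on the mimic arrays, which do not overlap. Its log2 fold change was 0.52 ± 0.18 (SE), 0.35 without NC oligo replicate 1 and 0.18 without background correction. GAGE12E had 5.02 ± 0.02 in the NC oligo group (SD, n = 2) and 4.51 and 4.78 on the mimic arrays, which do not overlap in the opposite direction, and a log2 fold change of -0.37 ± 0.15 (SE). It was -0.25 without mimic replicate 1, -0.11 without background correction and -0.06 on the authors' scaled signals. GAGE12G had 0.00 (95% interval -0.33 to 0.33), with 7.49 in both groups, and the 2 GAGE4 probes had 0.04 and -0.18. The other GAGE12 probes ran from -0.15 at GAGE12B to 0.20 at GAGE12J, with GAGE12C at 0.07, GAGE12F at -0.02 and GAGE12H at 0.08. Near-identical copies thus gave values of both signs, and the values of GAGE2A and GAGE12E did not pass the test (limma adjusted p = 0.896 for both).

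The third member at an unadjusted p under 0.05 was MAGED2, at 1 of its 3 tested probes. That probe had a log2 fold change of 0.33 ± 0.15 (SE), from 4.81 ± 0.08 with the NC oligo to 5.15 ± 0.11 with the mimic (SD, n = 2). Without background correction it was 0.10, and the other probes of MAGED2 had 0.09 and 0.12. MAGED1 had 0.10 and 0.11 at its 2 tested probes, and SSX2IP had -0.34 ± 0.25 (SE), with mimic array 1 low. At MAGEA6 the probe detected on 3 arrays had -0.34 ± 0.19 (SE) and the other tested probe -0.08 ± 0.18 (SE). MAGEA9B had -0.39 ± 0.21 (SE). MAGEA12 had -0.10, MAGED4B -0.01 and 0.01, MAGEE1 0.12, MAGEF1 0.01, MAGEH1 -0.11 and 0.08, CTAGE6 0.11 and 0.27, and CTAGE15 0.25. The limma adjusted p of every one was 0.896 or higher.

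Of the genes around the families, 0 were called either. Among other cancer-testis antigens 44 probes were tested, with a median log2 fold change of -0.08. At an unadjusted p under 0.05, 1 was higher and 2 lower, against 2.62% and 2.83% of all tested probes. Most genes named below were picked for their small p. KNL1, a kinetochore protein, had 0.46 ± 0.16 (SE) at 1 of 2 probes. That probe was near the limit, at 99.0 to 107.6 and detected on 3 arrays, and the other was detected on none. PBK, a mitotic kinase, had -0.50 ± 0.17 (SE). SPANXD had -0.55 ± 0.22 (SE) at 1 of its 4 probes, the others of which had -0.22 to -0.04. Of 22 tested probes for MAGE and SSX partners 2 were higher and 1 lower, beside the same 2.62% and 2.83%. Their median was 0.00. SS18, the fusion partner of SSX genes, had 0.57 ± 0.14 (SE) at 1 probe and -0.00 and 0.27 at the other tested ones, WASHC1, a subunit of an endosomal complex that MAGEL2 acts on, had 0.72 ± 0.18 (SE) at the dimmer of 2 tested probes and 0.08 ± 0.14 (SE) at the brighter, and BMI1, a Polycomb subunit, had -0.51 ± 0.15 (SE). For the 42 probes of silencing regulators the median was also 0.00, with DNMT1 at -0.01 ± 0.15 (SE) and the histone methyltransferase EHMT2 at 0.36 ± 0.14 (SE). The limma adjusted p of each was at least 0.896.

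**Figure D4:**
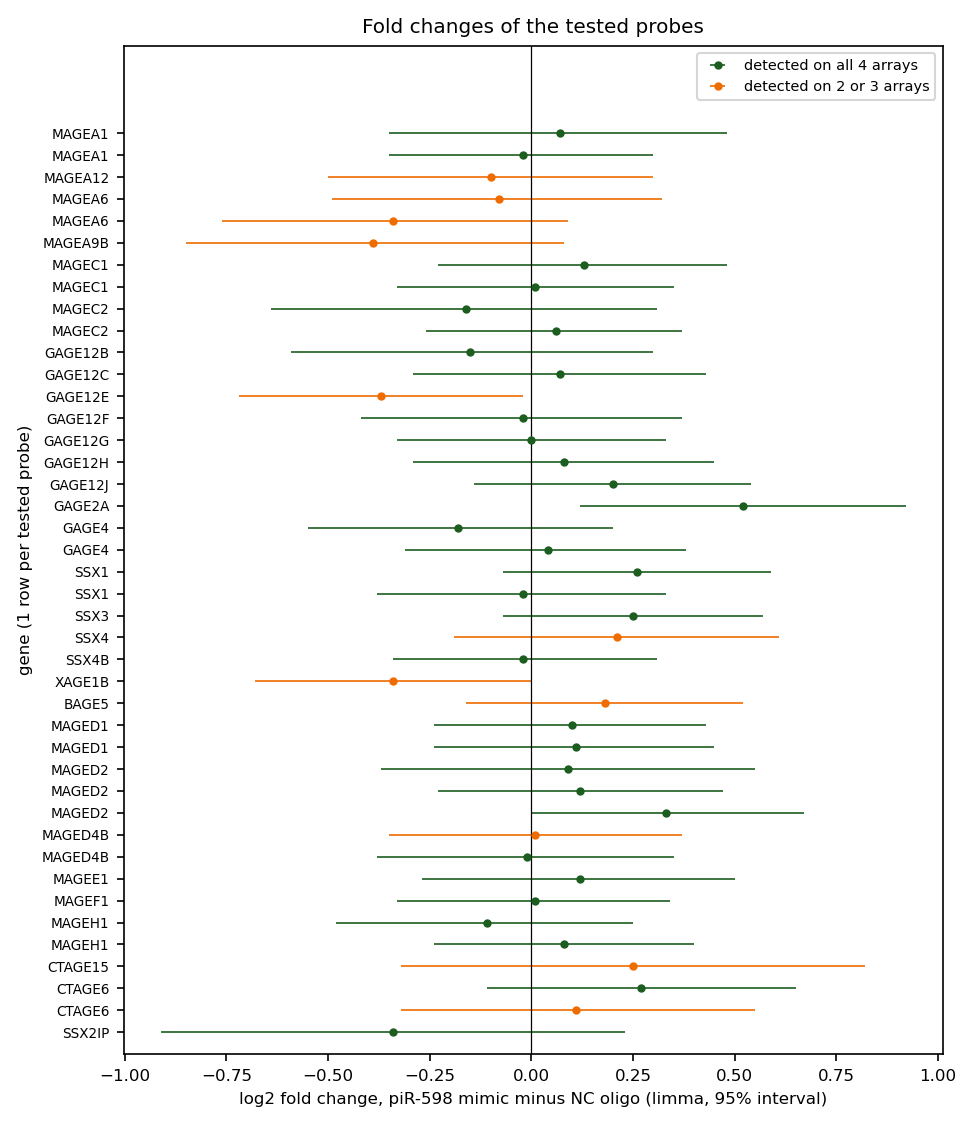
Log2 fold change (piR-598 mimic minus NC oligo, limma) with its 95% interval for the 42 tested member probes, 1 row per probe, by family and by the number of arrays on which the probe was detected. Values run from -0.39 to 0.52, and 0 probes passed the test after adjustment.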

How the data were processed

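Per the labels, U87 cells were transfected with a piR-598 mimic or an NC oligo, and total RNA was labelled as biotinylated cRNA. Groups and replicate numbers come from the titles. The first deposited table holds signal intensity per probe and array, without scaling or background subtraction, and a detection p-value for each, per the file headers. The program was GenomeStudio 2011.1, per the submitters' processing notes. The second holds intensities that the authors deposited after multiplying each array by a constant, and it was an alternative only.

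Signals were background-corrected with normexp from the detection p, with an offset of 16, quantile normalized and taken to log2 in limma 3.58.1 (R 4.3.3). Only probes detected (limit 0.05) on 2 or more arrays entered the test. The test was lmFit and eBayes, two-sided, with Benjamini-Hochberg adjustment over all tested probes. The series calls the samples biological duplicates without saying how they were separated, and the spread behind each p-value may be partly technical. The number of arrays limits precision. The text names every detected or tested member, the best known genes of each family, and listed genes of smallest p; further listed genes, and marker genes, were named after their values were seen. Members and lists were chosen with earlier results of these data known. Of 47318 probes 30112 had 1 symbol, and only these were searched for members, so any probe annotated to several copies was left out. Alternatives were other background, scaling, filter and variance settings, the replicate number as a block, and leaving out each array.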

Additional observations from a re-analysis of the deposited data

How the results depend on the processing

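The count of 22 detected member genes was 19 at a detection p under 0.01 on all 4 arrays, 30 on at least 2 arrays, 39 on at least 1 array, 15 where every probe of the gene had to be detected, 21 without the CTAGE genes and 14 without CTAGE, SSX2IP and the type II MAGE genes. The last of these was chosen after seeing the data. Leaving out each array in turn gave 22 to 24. No member probe was called in any setting, with 0 in each and a smallest adjusted p of 0.285. Over all probes 0 were called, and 0 to 2 when an array was left out (2 where NC oligo replicate 2 was left out and 1 where mimic replicate 2 was). The 3 member probes at an unadjusted p under 0.05 became 0 without background correction, 1 with an offset of 50, 6 without a detection filter, 1 with the stricter filter, 1 on the authors' scaled signals and 1 with an intensity trend. They were 0 with NC oligo replicate 1 left out and 2 with NC oligo replicate 2 left out. They were 1 with mimic replicate 1 left out and 9 with mimic replicate 2 left out, where the lone array of a group is assumed to vary like the other group. The replicate block gave 4, and it changed no call. Same-numbered samples deviated together with a correlation of 0.147 across probes, which with 2 pairs does not establish pairing. The cause of these shifts was not tested.

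Of 42 tested member probes 15 kept their sign in every setting. Median scaling, which moved the median of all 20188 tested probes to -0.09, turned the log2 fold change to -0.13 for GAGE12G, -0.04 for MAGED2 (ILMN_1683576), -0.03 for MAGEA1 (ILMN_1722830), -0.05 for MAGEF1, -0.01 for MAGED1 (ILMN_1775522), -0.0012 for MAGED4B (ILMN_1788817), -0.08 for MAGEC2 (ILMN_2088876), -0.1 for GAGE4 (ILMN_2195385), -0.1 for MAGEC1 (ILMN_2241627), -0.02 for MAGED1 (ILMN_2306189), -0.05 for GAGE12C and -0.03 for GAGE12H. On the authors' scaled signals it turned to -0.03 for GAGE12G, 0.03 for MAGEA6 (ILMN_1675651), 0.02 for MAGEA12, -0.0035 for GAGE4 (ILMN_2195385), 0.01 for SSX1 (ILMN_2247572), 0.02 for MAGED4B (ILMN_2316278), 0.04 for SSX4B and 0.02 for GAGE12F, and with cyclic loess to -0.01 for GAGE12G. Leaving out arrays turned the sign of 25 probes, with ranges of -0.28 to 0.05 for MAGEH1 (ILMN_1659659), -0.07 to 0.07 for GAGE12G, -0.29 to 0.03 for MAGEA6 (ILMN_1675651), -0.22 to 0.4 for MAGED2 (ILMN_1683576), -0.02 to 0.25 for MAGED2 (ILMN_1684984), -0.28 to 0.02 for MAGEA12, -0.01 to 0.27 for MAGEC1 (ILMN_1720041), -0.75 to 0.07 for SSX2IP, -0.11 to 0.25 for MAGEA1 (ILMN_1722830), -0.09 to 0.1 for MAGEF1, -0.41 to 0.08 for MAGEC2 (ILMN_1757152) and -0.12 to 0.11 for MAGED4B (ILMN_1788817). For the others the ranges were -0.06 to 0.33 for CTAGE6 (ILMN_1806463), -0.07 to 0.02 for MAGEA1 (ILMN_2181593), -0.06 to 0.14 for GAGE4 (ILMN_2195385), -0.06 to 0.29 for MAGEE1, -0.1 to 0.12 for MAGEC1 (ILMN_2241627), -0.16 to 0.11 for SSX1 (ILMN_2247572), -0.01 to 0.22 for MAGED1 (ILMN_2306189), -0.14 to 0.11 for MAGED4B (ILMN_2316278), -0.08 to 0.05 for SSX4B, -0.22 to 0.17 for GAGE12F, -0.07 to 0.21 for GAGE12C, -0.37 to 0.09 for GAGE12B and -0.09 to 0.25 for GAGE12H.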
